A study of Homo sapiens with 3 samples.

Results

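The genes described here encode the proteasome and the chaperones of the cell, in the lung cancer line 95D with and without glucose or glutamine. Members were the protein-coding genes whose symbol starts with PSMA to PSMG, CCT, DNAJ or HSP, plus TCP1, with the endoplasmic reticulum chaperones HSPA5 and HSP90B1 left out. The rule used names only, and 56 of the 5932 genes listed in the deposited table met it. The study had 3 libraries of genotype WT cells, 1 each from glucose-deficient culture for 48 h, glutamine-deficient culture for 48 h and control culture for 48 h. For all 3 the labels' protocols describe RNA captured on a biotinylated copy of the long non-coding RNA DAMER, whereas the titles say RNA-Seq. Whether control RNA also went through the capture cannot be told from them. Both deprived cultures had dialyzed serum, and the labels do not say which serum the control medium had. With 1 library per group there is no replicate check, no p-value is given, and intervals cover counting error only.

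The proteasome is a barrel of stacked rings that cuts proteins into peptides. The alpha ring gates its entry, the beta ring holds the cutting sites, and a regulatory cap takes up proteins tagged with ubiquitin. Chaperones keep proteins folded before that point: HSP70 and HSP90 bind and release clients with ATP, J-domain proteins bring clients to HSP70, and the ring-shaped TRiC complex folds actin and tubulin. Many chaperone genes answer to heat shock factor, which binds inverted GAA units in promoters, and many proteasome genes answer to NRF1 and NRF2, which bind the antioxidant response element.

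The promoters of the members were searched for these elements, as a feature the naming rule did not use. RefSeq promoter windows of build GRCh38.p14, the 250 bases before the start, were matched for 47 of the 56 members. On either strand, the heat shock element was spelled GAANNTTC or TTCNNGAA, the antioxidant response element core TGACNNNGC, and the CCAAT box CCAAT. Overlapping heat shock matches were merged into 1 site. A heat shock match lay in 6 of 27 chaperone windows (22.2%) and in 0 of 18 proteasome windows, against 3208 of 27305 windows of all genes (11.7%). The chaperone windows were those of HSPA8, HSPA1B, DNAJA1, HSPB1, HSPB8 and TCP1, and HSPA8 had 2 separate sites. The remaining window with a match was that of PSMC3IP. The antioxidant core lay in 3 of 18 proteasome windows (16.7%), those of PSMD12, PSME4 and PSMG1. It lay in 5 of 27 chaperone windows (18.5%) and in 3013 of the 27305 windows of all genes. The CCAAT box lay in 8 proteasome windows (44.4%) and 9 chaperone windows (33.3%), against 9021 of all 27305. A match describes letters and not binding, and a window without one says nothing of the factor. Stretches around a match are given for 2 chaperones of the heat shock response, for HSP90AB1, which had most fragments in glucose-deficient cells, and for the proteasome cap gene PSMD12. None of the 4 stretches overlaps an exon in GENCODE release 29. Stretches around the heat shock matches of HSPA8, DNAJA1, HSPB8 and TCP1 do overlap annotated exons. So do those around the antioxidant cores of PSME4, PSMG1, CCT4, DNAJA2 and DNAJC10, so the counts above include windows that reach into exons. Capitals mark the matched letters, and each stretch reads 5′ to 3′ along the gene's strand.

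HSPA1B, heat shock element, chr6:31827593-31827680, plus strand: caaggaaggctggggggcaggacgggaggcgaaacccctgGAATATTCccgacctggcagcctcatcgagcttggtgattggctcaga
HSPB1, heat shock element, chr7:76302451-76302538, plus strand: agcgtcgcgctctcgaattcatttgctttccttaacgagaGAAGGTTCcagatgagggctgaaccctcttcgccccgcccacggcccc
HSP90AB1, antioxidant core, chr6:44245944-44246020, plus strand: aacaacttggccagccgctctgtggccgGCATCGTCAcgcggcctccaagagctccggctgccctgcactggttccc
PSMD12, antioxidant core, chr17:67366694-67366782, minus strand: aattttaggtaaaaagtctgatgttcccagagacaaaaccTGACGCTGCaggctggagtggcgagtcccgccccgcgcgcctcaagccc

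Of 135 protein-coding genes with these names in GENCODE release 29, the 56 members are those listed in both blocks of the deposited table. The table listed 4 of 8 PSMA, 6 of 11 PSMB, 3 of 6 PSMC and 6 of 14 PSMD genes. It also listed 7 of 9 CCT and TCP1 genes, 7 of 13 HSPA genes, both HSP90A genes, 8 of 29 DNAJC genes and 2 of 4 DNAJA genes. No DNAJB gene of 12 was listed. All 3 genes HSPD1, HSPE1 and HSPH1 were listed. The remaining genes were not analysed here. The label of cytosolic chaperones held only in part. HSPA9, HSPD1, HSPE1 and DNAJC11 belong to mitochondria, and HSPA13, DNAJC1, DNAJC3 and DNAJC10 to the endoplasmic reticulum. PSMC3IP matches by name and is known as a cofactor of meiotic recombination, and HSPE1-MOB4 is a read-through transcript that shares its only row with HSPE1.

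Values are in RPM, a gene's fragments as a share of its library scaled to a common total, and a gene's level is the sum of its listed rows. The members had 163 rows, which are 162 distinct regions; 17 members had 1 row and HSPA4 had 15, the most. Each row carries an added 0.5 fragment, so a gene seen 0 times still shows a level above 0. Apart from 7 rows of the glucose block and 2 of the glutamine block with under 3 control fragments, no listed row had fewer than 9.5 control fragments (2.64 RPM). No listed row that was lower in glucose-deficient cells was lower by less than 31.8-fold, and none in glutamine-deficient cells by less than 33.9-fold. No source used here says how the rows were chosen, so a gene with a smaller difference may not be listed.

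As inferred from the fixed steps of the RPM values, 1 fragment was worth 0.0533 RPM in glucose-deficient, 0.0546 in glutamine-deficient and 0.264 in control cells. The library totals that follow from these steps were 18775817, 18301611 and 3781863 fragments in that order. A count of 0 allows up to 3 fragments, or 0.160, 0.164 and 0.793 RPM. Almost all of both deprived libraries was ATF4, the transcription factor of the integrated stress response, at 998517 RPM in glucose-deficient and 998557 RPM in glutamine-deficient cells, against 237 RPM in the control. Outside ATF4 and its pseudogenes, 1 row of which also carries the name RNF157, 12936 fragments were left in glucose-deficient, 14450 in glutamine-deficient and 3780905 in control cells. Every level below is a share of such totals. Of cell type markers, 1 of 7 epithelial (KRT8 at 6.48 RPM in the control) and 2 of 5 mesenchymal genes (VIM at 77.7 and ZEB1 at 5.16 RPM) were listed. Of leukocyte markers 1 of 6 was listed (CSF1R) and of neuronal ones 1 of 4 (NCAM1), and no fibroblast, endothelial or erythroid marker was.

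All 56 members were lower by at least 2-fold in glucose-deficient than in control cells, and none was higher. The same held in glutamine-deficient cells. Among all listed genes that reached 1 RPM in the control or the deprived library, 99.9% were lower under glucose deficiency (5924 of 5931) and 99.9% under glutamine deficiency (5924 of 5928), so the members' share is near the background. No lower row was lower by less than 31.8-fold in glucose-deficient or 33.9-fold in glutamine-deficient cells. The members' share and the background therefore both depend on which rows were listed, and a 2-fold call adds little to the listing. In bulk RNA, fewer cells with a transcript and less of it per cell cannot be told apart. A share lowered by ATF4 in the totals or by the capture step cannot be told apart from these either, and none was tested. Higher genes made up 0.118% in glucose-deficient and 0.0675% in glutamine-deficient cells. On the log2(RPM + 1) scale, where the 1 RPM added makes differences of low genes look smaller, the members' median was −4.23 in glucose-deficient and −4.23 in glutamine-deficient cells, against −3.92 and −3.93 over all genes. With genes at 0 fragments set to 3 fragments and no pseudocount, the members' median was −7.10 in glucose-deficient cells, against −6.59 over all genes. In the glutamine-deficient library it was −6.82, against −6.48 over all genes. Such ratios follow the control level of each gene, because 48 members had 0 fragments in glucose-deficient cells and all 56 had 0 in glutamine-deficient cells.

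The ratio also rests on ATF4 being in the totals. When the ATF4 family (the gene and its pseudogenes) was left out of the totals and the offset taken off, 48 members were lower (85.7%) and 6 higher (10.7%) in glucose-deficient cells, against 92.0% lower and 4.23% higher over all listed genes. All 56 were lower in glutamine-deficient cells, where each had 0 fragments, against 99.4% over all listed genes. The 48 lower in glucose-deficient cells are those with 0 fragments, and the 6 higher were all seen with a fragment. With the offset off these calls restate whether a fragment was seen and give no direction. With the same totals and the offset kept, 0 were lower and 50 higher (89.3%) in glucose-deficient cells, against 87.8% higher over all listed genes. In glutamine-deficient cells 0 were lower and 48 higher (85.7%), against 84.0% higher over all listed genes. These calls come from the offset, which once rescaled exceeds the control level of most members, so they give no direction. That last scaling moved the median of all listed genes by 6.12 in glucose-deficient and by 5.93 in glutamine-deficient cells on the log2 scale, and that of the members by 6.49 and 6.15. On fragments alone, the 95% interval of the ratio held 1 for each of the 56 members in both libraries. The direction of a single member relative to fragments outside the ATF4 family was therefore not detectable at this depth. Of the 12936 glucose-deficient and 14450 glutamine-deficient fragments outside that family, 1163 and 144.5 lay in regions of listed genes. In the control 861964 of 3780905 did, over regions of the glucose block. What the other fragments are is not known, and every ratio on these totals rests on them. Summed over the members, the ratio on these totals was 0.475 (95% interval 0.245 to 0.830) in glucose-deficient cells, against 0.409 for all listed genes outside mitochondrial DNA. In the glutamine-deficient library it was 0 (95% interval 0 to 0.131), against 0.0160 for the same genes.

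**Figure D1:**
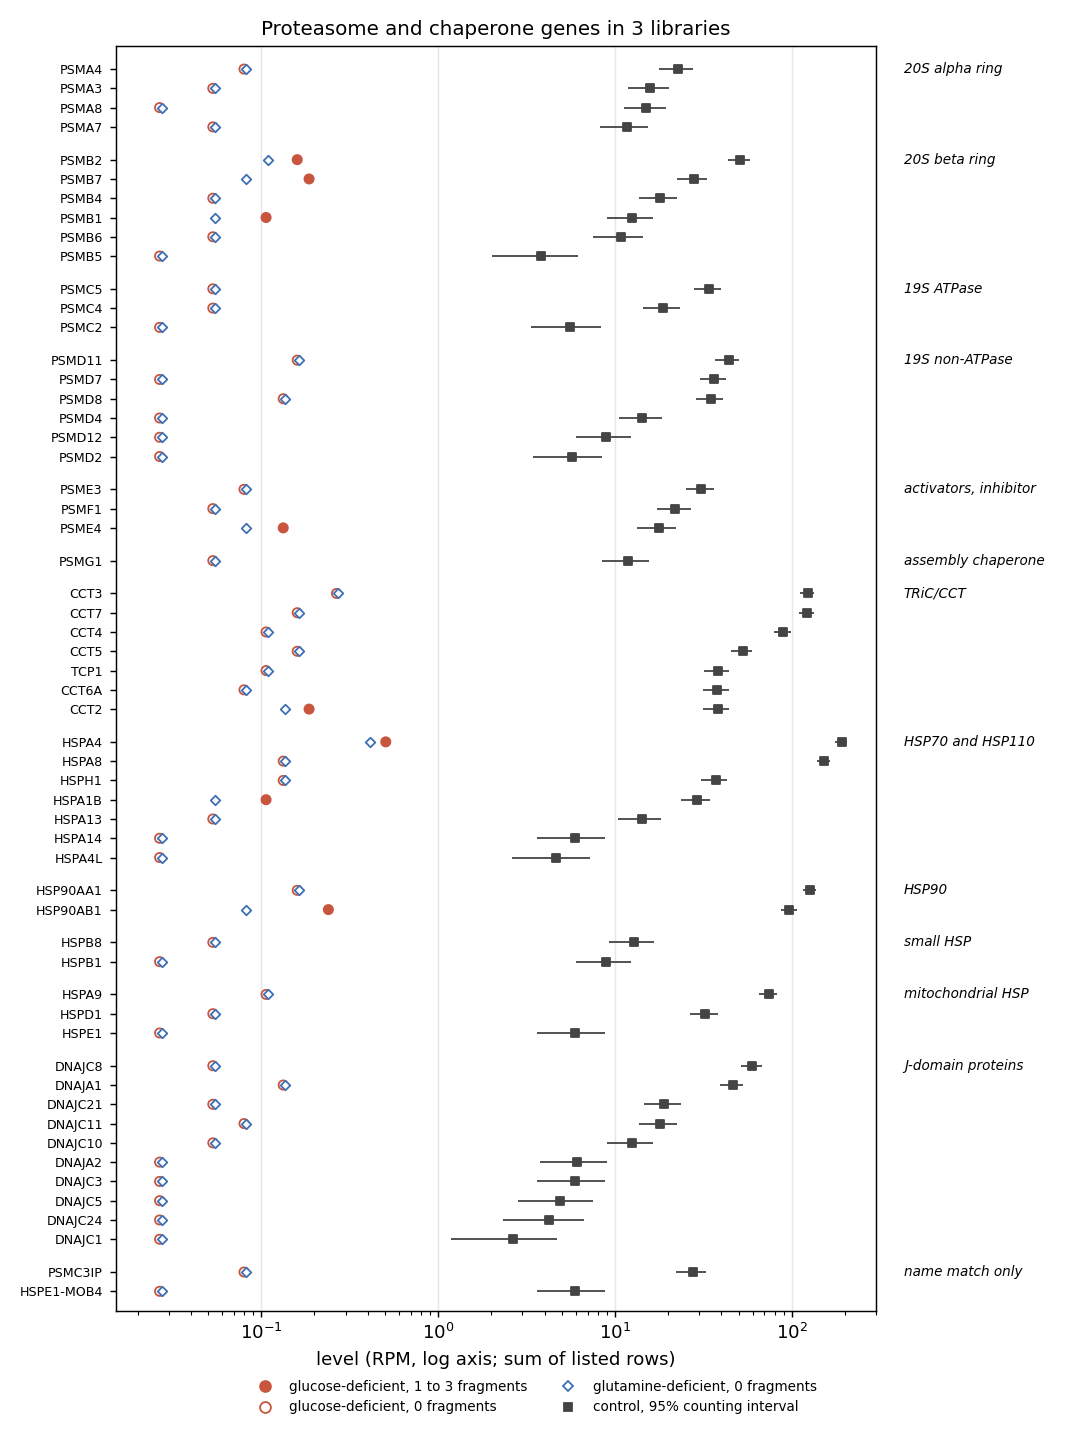
Level of each of the 56 members in RPM on a log axis, grouped by role, in the glucose-deficient (circles), glutamine-deficient (diamonds) and control library (squares with 95% counting intervals of the level without the offset). Open symbols stand for 0 fragments and show the added offset only, so they sit further right for genes with more rows; filled circles are the 8 members with 1 to 3 fragments.

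Fragments of the members outside the control library came from 8 genes. These 8 of 56 members (14.3%) held 12 fragments under glucose deficiency, in 9 rows, where 9.02% of all genes had at least 1. In the glutamine-deficient library 0 of 56 members had a fragment, where 0.776% of all genes did, or 46 of 5928. Of the 8 genes, 3 belong to the beta ring, 1 is a proteasome activator, 2 are HSP70 or HSP110 genes, 1 is an HSP90 gene and 1 is a TRiC subunit.

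HSP90AB1 (chr6:44246166-44253888, plus strand, hg38), the constitutive cytosolic HSP90, had 0.240 RPM in glucose-deficient, 0.0820 RPM in glutamine-deficient and 96.5 RPM in control cells. These are 3, 0 and 363.5 fragments. Its 3 fragments, the most of any member, fell in 2 of its 3 rows, with 1 against 111.5 control fragments and 2 against 138.5. Without the offset it was 602-fold lower in glucose-deficient than in control cells (204 to 2931) and at least 586-fold lower in glutamine-deficient cells. Its partner gene HSP90AA1, the inducible HSP90, had 0 fragments in both deprived libraries and 476.5 in the control (127 RPM), which sets it at least 789-fold lower in glucose-deficient and at least 769-fold lower in glutamine-deficient cells. Both HSP90 genes together had 3 fragments in glucose-deficient and 0 in glutamine-deficient cells, against 840 in the control. Bounds of this kind set 0 to 3 fragments and leave out the counting error of the control. Folds and bounds of single members, here and below, use totals that include ATF4. With the ATF4 family left out of the totals, the ratio of HSP90AB1 in glucose-deficient against control cells was 2.41 (0.495 to 7.11), an interval that holds 1.

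HSPA4 (chr5:133051962-133106449, plus strand), an HSP110-type exchange factor of HSP70, had the highest level of all members in the control, both in RPM and per length. It had 0.506 RPM in glucose-deficient, 0.410 RPM in glutamine-deficient and 192 RPM in control cells, from 2, 0 and 718.5 fragments. The glutamine-deficient value is the offset of its 15 rows alone. Both fragments lay in 1 row, which had 44 control fragments. HSPA4 was 1784-fold lower in glucose-deficient cells without the offset (492 to 14756), and at least 1159-fold lower in glutamine-deficient cells. HSPA8, the constitutive HSP70 of the cytosol, had 574 control fragments in 5 rows and 0 in both deprived libraries, and was at least 950-fold lower in glucose-deficient and at least 926-fold lower in glutamine-deficient cells. HSPA1B (chr6:31827735-31830255, plus strand), a heat-inducible HSP70, had 0.107 RPM in glucose-deficient, 0.0546 RPM in glutamine-deficient and 28.95 RPM in control cells, from 1, 0 and 108.5 fragments. Its 539-fold lower level in glucose-deficient cells has an interval of 94.7 to 21470. HSPA1B is nearly identical to HSPA1A, and reads of the pair may have been split or assigned either way. One of its 2 rows, holding 14.9 RPM of the control level, was shared with the overlapping gene AL671762.1.

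The other HSP70-type genes had 0 fragments in both deprived libraries. The HSP110 gene HSPH1 had 137.5 control fragments (37.0 RPM). HSPA13, an HSP70-type protein of the endoplasmic reticulum, had 52.5 (14.1 RPM). HSPA14, which works at the ribosome, had 22 (5.95 RPM), and its row was shared with an overlapping gene entry of the same symbol. HSPA4L, the relative of HSPA4, had 17 control fragments (4.63 RPM) and 0 in both deprived libraries.

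The 7 TRiC members summed to 501 RPM in the control, each between 37.9 and 124 RPM. One fragment of TRiC RNA was seen in glucose-deficient cells and 0 in glutamine-deficient cells, against 1878 in the control. That fragment belonged to CCT2 (chr12:69585334-69601570, plus strand), with 0.186 RPM in glucose-deficient, 0.137 RPM in glutamine-deficient and 38.1 RPM in control cells, or 1, 0 and 141.5 fragments. CCT2 was 703-fold lower in glucose-deficient cells (124 to 27941). CCT3, CCT7, CCT4 and CCT5 had 462.5, 457.5, 334.5 and 197 control fragments, and 0 in both deprived libraries. CCT6A had 142 and TCP1 142.5, also with 0 in both. All TRiC subunits assemble at equal number in 1 complex, while the levels of listed rows spanned 3.26-fold in RPM and 4.41-fold per length. Of the 4 rows of CCT4, 3 rows with 52.0 of its 89.0 RPM in the control were shared with the antisense gene AC107081.2. Single rows of CCT3, CCT5 and TCP1 were shared with TSACC, AC012640.4 and ACAT2. Whether counting used strand is not given, so reads of these pairs cannot be told apart.

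The beta ring had 4 fragments in glucose-deficient cells, 0 in glutamine-deficient and 462.5 in the control, spread over 3 of its 6 listed members. PSMB7 (chr9:124353466-124415444, minus strand), which holds the trypsin-like site, had 0.186 RPM in glucose-deficient, 0.0820 RPM in glutamine-deficient and 27.9 RPM in control cells, or 2, 0 and 104 fragments. Both fragments lay in the row with 43 control fragments, and the gene was 258-fold lower in glucose-deficient cells (69.7 to 2160). PSMB2 (chr1:35599544-35641844, minus strand), a structural subunit, had 1 fragment in glucose-deficient, 0 in glutamine-deficient and 191 in control cells (0.160, 0.109 and 51.0 RPM), 948-fold lower in glucose-deficient cells (168 to 37648). PSMB1 (chr6:170535117-170553341, minus strand), also structural, had 1, 0 and 46.5 fragments in the same order (0.107, 0.0546 and 12.6 RPM), 231-fold lower in glucose-deficient cells (39.4 to 9312). The structural subunit PSMB4 had 67 control fragments, PSMB6 of the caspase-like site 40 and PSMB5 of the chymotrypsin-like site, the target of bortezomib, 14. These 3 had 0 fragments in both deprived libraries.

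PSME4 (chr2:53864067-53970840, minus strand), the activator PA200, had 0.133 RPM in glucose-deficient, 0.0820 RPM in glutamine-deficient and 17.7 RPM in control cells, or 1, 0 and 65.5 fragments. It was 325-fold lower in glucose-deficient cells (56.4 to 13038). The activator subunit PSME3 had 115 control fragments, the inhibitor PSMF1 had 82, and the assembly chaperone PSMG1 had 44, with 0 in both deprived libraries.

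The alpha ring and the cap had 0 fragments in both deprived libraries. Of the alpha ring, PSMA4 had 84 control fragments (22.6 RPM), PSMA3 59, PSMA8 56.5 and PSMA7 43. PSMA8 is known as a testis subunit, and its only row, at 15.1 RPM in the control, was shared with the pseudogene DHFRP1, so this level may not be RNA of PSMA8. One of the 2 rows of PSMA3 was shared with its antisense gene PSMA3-AS1 and with AL132989.1. Of the ATPases at the base of the cap, PSMC5 had 127 control fragments (33.8 RPM), PSMC4 69.5 and PSMC2 20.5. Of the other cap subunits, PSMD11 had 164 (44.2 RPM), PSMD7 136.5, PSMD8 130 and the ubiquitin receptor PSMD4 53. PSMD12 and the large scaffold subunit PSMD2 had 33 and 21. The only row of PSMD7 was shared with AC009120.2 and 1 of 6 rows of PSMD11 with AC005899.8. PSMC3IP had 102.5 control fragments, and 1 of its 3 rows was shared with MLX.

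The J-domain proteins, the small heat shock proteins and the mitochondrial chaperones also had 0 fragments in both deprived libraries. Of the 10 J-domain genes, DNAJC8, known from pre-mRNA splicing, had 223.5 control fragments (59.4 RPM) and DNAJA1, a partner of HSP70, had 172.5 (46.3 RPM). DNAJC21, which acts in ribosome maturation, had 70.5 and DNAJC11 of the mitochondrial membrane 66.5, with 1 row shared with THAP3. The other 6 J-domain genes, DNAJC10, DNAJA2, DNAJC3, DNAJC5, DNAJC24 and DNAJC1, had 9.5 to 46.5 control fragments. DNAJC1 had the fewest control fragments of all members, 9.5 or 2.64 RPM. Its bound, at least 15.7-fold lower in glucose-deficient and at least 15.3-fold lower in glutamine-deficient cells, was the weakest of all members with 0 fragments. The small heat shock proteins HSPB8 and HSPB1 had 47.5 and 33 control fragments. Of the mitochondrial folding machinery, the HSP70 gene HSPA9 had 277.5 control fragments (73.9 RPM), the chaperonin HSPD1 120.5 (32.1 RPM) and its lid HSPE1 22 (5.95 RPM).

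The control level of a member ranged from 2.64 to 192 RPM with a median of 18.8, and the members made up 0.195% of that library. Levels can be set side by side between genes only per length, here per kb of the gene's exons joined over all transcripts. Only fragments of listed rows entered, while all exons entered the length. A gene with few listed rows may therefore come out too low. HSPA4 had 15 listed rows and PSMD2 had 1, each with up to 21 exons in a transcript. The order below is one of listed fragments per exon length. Per kb the range was 0.387 (HSPA4L) to 36.9 RPM per kb (HSPA4), with a median of 6.26. HSPA4 (34.2 to 39.7), CCT7 at 33.7 (30.7 to 36.9), HSP90AB1 at 32.3 (29.02 to 35.7), HSPA8 at 31.3 (28.8 to 34.0), CCT4 at 31.3 (27.99 to 34.8) and CCT3 at 30.4 RPM per kb (27.7 to 33.3) led that order. Neighbours among these 6 had overlapping intervals, and HSP90AA1 followed below them at 24.0 (21.9 to 26.3). DNAJC8 at 20.5 (17.9 to 23.3), DNAJA1 at 16.7 (14.3 to 19.4) and PSMB7 at 15.4 RPM per kb (12.6 to 18.6) came next, and each overlapped the one before it. The median chaperone had 32.1 RPM and the median proteasome gene 17.7 RPM, over 31 and 23 genes. Per kb the medians were 7.51 and 5.90, so the log2 difference of 0.86 in RPM was 0.35 per length. Across the 56 members Spearman's rho was 0.18 between control RPM and exon length, and 0.32 between listed rows and exon number; these describe genes of 1 library.

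**Figure D2:**
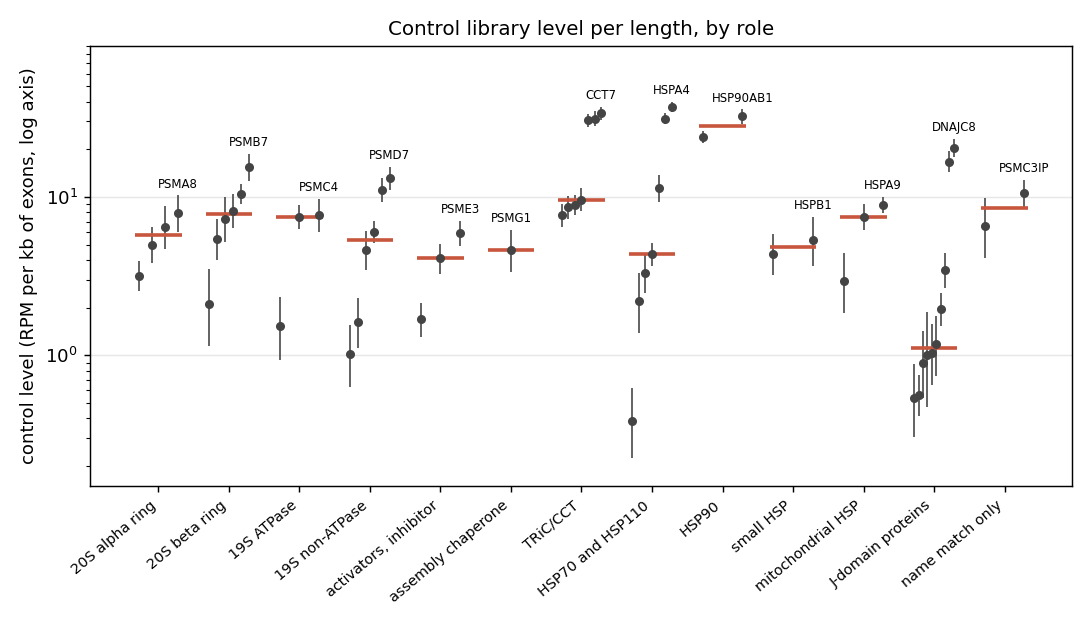
Control level of each member, from its listed rows, in RPM per kb of exons on a log axis, by role, with 95% counting intervals. Red lines are medians and the highest member of each role is named. TRiC splits into 3 genes above 30 and 4 between 7.64 and 9.63 RPM per kb, and 8 of the 10 J-domain genes lie below 4.

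Gene groups were also compared by their fragments in a deprived library per 1000 control fragments. This is a ratio of raw fragments between libraries of unequal depth, so it compares groups within a library and does not give how much RNA was left. In the glucose-deficient library the members had 12 against 7384 control fragments, or 1.63 per 1000 (0.839 to 2.84). Other protein-coding genes outside the ATF4 family and mitochondrial DNA had 1.39 (1.28 to 1.497), and 1.29 without the gene NOL4L. The members' interval holds the value of the other genes. Proteasome genes had 5 against 1766 fragments, or 2.83 (0.918 to 6.62), and chaperones 7 against 5515, or 1.27 (0.510 to 2.62), and these intervals overlap. In the glutamine-deficient library the members had 0 per 1000 (0 to 0.4997), against 0.0770 for other protein-coding genes (0.0537 to 0.107). A difference was therefore not detectable at this depth. The beta ring had 8.65 per 1000 in glucose-deficient cells (2.35 to 22.3), the highest value of 13 role groups, from 4 fragments, and its interval is not adjusted for the number of groups. TRiC had 0.533 (0.0135 to 2.97) and the J-domain genes 0 (0 to 5.55).

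**Figure D3:**
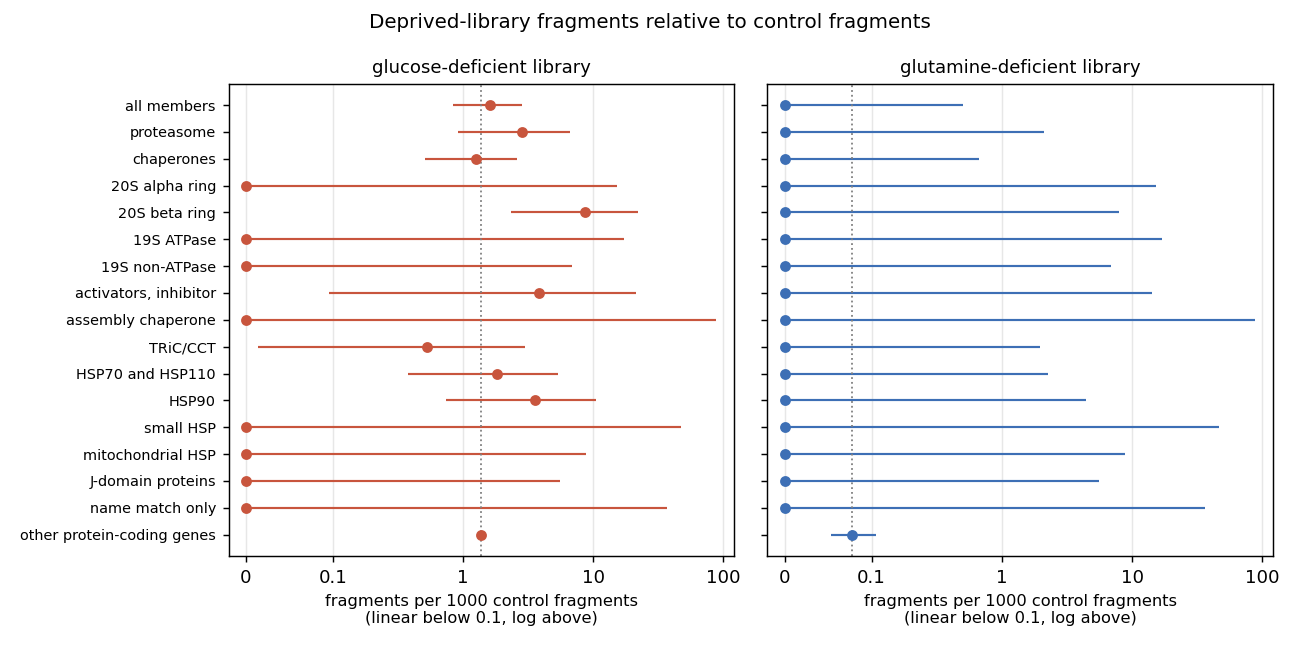
Fragments per 1000 control fragments in the glucose-deficient (left) and glutamine-deficient library (right) for all members, the proteasome and chaperone genes, each role and the other protein-coding genes, with 95% intervals of counting error. The dotted line is the value of the other protein-coding genes, 1.39 on the left and 0.0770 on the right; of the role groups only the beta ring in glucose-deficient cells has an interval that leaves it out.

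Among the other listed genes, here without the ATF4 family and mitochondrial genes, the share with a fragment was larger at higher control levels. Among genes under 20 RPM in the control, 2 of 29 members had a fragment in glucose-deficient cells, against 3.0% of the other listed genes. From 20 to 50 RPM these were 3 of 16 members against 9.49%, and from 50 to 100 RPM 2 of 6 against 20.6%. At 100 RPM or more it was 1 of 5 members (HSPA4) against 46.5%, or 160 of 344; the others of these 5 were HSPA8, HSP90AA1, CCT3 and CCT7. No test was made of these counts.

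**Figure D4:**
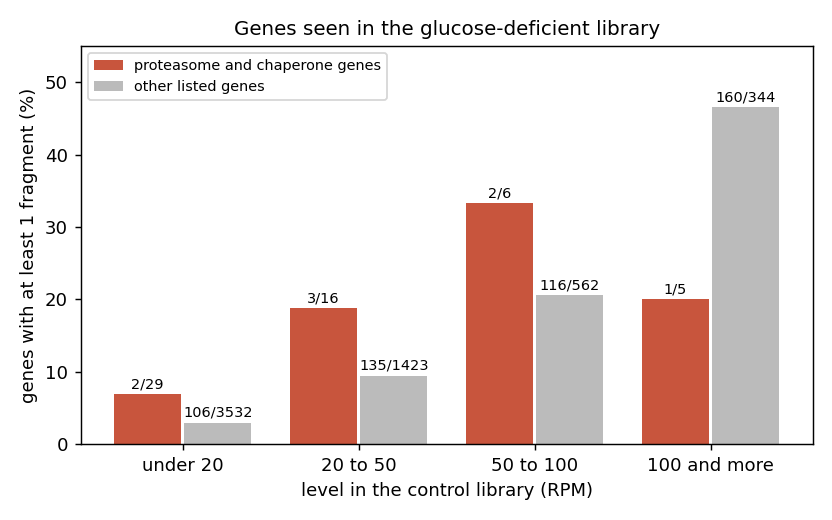
Share of genes with at least 1 fragment in glucose-deficient cells, by control level, for the members (red) and the other listed genes (grey), with counts above each bar. The grey bars leave out the ATF4 family and mitochondrial genes. The share of other genes climbs from 3.0 to 46.5% over the 4 levels, while the members' top bar rests on 5 genes.

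Between the 2 deprived libraries, the members had 12 fragments in glucose-deficient and 0 in glutamine-deficient cells. The lower end of the 95% interval of that ratio, scaled by library totals, was 2.71. Other protein-coding genes had 635 fragments in glucose-deficient and 35 in glutamine-deficient cells, a ratio of 17.7 (12.6 to 25.6), which lies inside the members' interval. Chaperones alone had 7 and 0, with a lower end of 1.41, and proteasome genes 5 and 0, with a lower end of 0.893, which does not leave out equal levels. No member reached 1 RPM in either deprived library, so none entered the count of 2-fold differences between them.

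Beyond the members, of 64 genes of ubiquitin supply, delivery to the proteasome and co-chaperones, 45 were listed, and all 45 were lower in both deprived libraries, with medians of −4.61 in each. Over all genes 99.9% were lower in each. A fragment was seen for 10 of the 45 in glucose-deficient and for 1 in glutamine-deficient cells, where 9.02% and 0.776% of all genes had one. The ubiquitin ligase HUWE1 had 3 fragments in glucose-deficient, 0 in glutamine-deficient and 1168 in control cells. The ligase UBR4 had 3, 0 and 1130. The ubiquitin gene UBB had 2, 0 and 666. The ubiquitin-activating enzyme UBA1 had 1, 1 and 519.5, the one glutamine-deficient fragment of the list, and the HSP90 co-chaperone CDC37 had 0, 0 and 378. The left-out endoplasmic reticulum chaperones had 1, 0 and 999.5 fragments (HSPA5) and 0, 0 and 589.5 (HSP90B1) in the same order of libraries.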

How the data were processed

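RNA of 3 libraries of 95D cells, 1 per culture condition, was sequenced. The submitters' processing notes name HISAT2 2.0.5 and hg38. The caller of regions and any use of strand are named by no source used here. Values were deposited as RPM, per the file headers. They rise in fixed steps with an offset of 0.5 fragment per row, from which fragments were recovered to the nearest 0.5. Whole fragments came out for 99.96% of glucose-deficient, 99.98% of glutamine-deficient and 63.3% of control values; the other control values lay 0.5 off. Rows that name no gene, 691 of 14338 and of 14333, stayed out of gene sums. For the glutamine-deficient sample the label points at the glucose column. Its own file equals the glutamine column row by row, and that set the mapping. All deposited value columns were used.

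Rows were summed per gene. Genes that reached 1 RPM in 1 of the libraries compared were called at 2-fold on log2(RPM + 1). No count model could be fitted to single libraries. Intervals are exact conditional binomial (ratios) or exact Poisson (levels) at 95%; floors are 3 fragments. No molecular identifiers are described in the labels, so they cover counting error only. Gene coordinates and exons came from GENCODE release 29 and promoter windows from RefSeq. Fragment recovery and the 2-fold calls were tested on simulated libraries of whole counts at the depth and levels of the control. That setting differs from the deprived libraries, which were almost all ATF4. Tools were matplotlib 3.10.9, scipy 1.17.1, numpy 2.4.6 and pandas 2.3.3 under Python 3.11.15.

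The members and lists were chosen with earlier results of these data known. Named were the members with a fragment in a deprived library, up to 4 members per role with most control fragments, the lowest and highest control member, and members that share a row with another gene. Of other pathway genes, those with most control fragments were named, and 1 of them is not reported here. Others were named to complete a role, after their values were seen. Alternatives changed the pseudocount, filter, offset, totals and members summed.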

Additional observations from a re-analysis of the deposited data

How the results depend on the processing

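The median log2 ratio of the members in the glucose-deficient against the control library was −6.92 with a pseudocount of 0.1 RPM, −2.23 with 5 RPM and −4.45 with a filter of 5 RPM. It was −3.90 on totals that leave out the ATF4 family (ATF4, its pseudogenes), and −4.01 when mitochondrial genes and the 10 most abundant ones were left out too. It was −7.10 with 0 set to 3 fragments and no pseudocount. In glutamine-deficient cells these were −6.93, −2.23, −4.45, −4.39 (on the last-named totals) and −6.82. With ATF4 out and the offset kept, an alternative chosen after seeing the data, the medians reversed to 2.26 for glucose-deficient and 1.92 for glutamine-deficient cells, since the rescaled offset alone exceeds the control level. Then 0 members were lower and 50 higher in glucose-deficient cells (87.8% of all listed genes were higher), and 0 lower and 48 higher in glutamine-deficient cells (84.0%). With the offset off, 6 and 5 members were higher in glucose-deficient cells under the 2 scalings without ATF4 (10.7% and 8.93%). Of all listed genes 4.23% and 4.0% were. Only members with a fragment could be higher there, so these counts follow detection. Between the deprived libraries 8 of 8 members tested were higher in the glucose-deficient one under each of these 2 scalings, and 4 of 56 with the offset kept. Those 8 passed the filter only through their glucose-deficient fragments, so their direction was fixed by the filter and says nothing of stability; on the deposited totals with the 1 RPM filter 0 members were tested. The log2 level of chaperones over proteasome genes in the control was 0.35 per kb. Fragments per 1000 control fragments in glucose-deficient cells ranged from 1.28 (without HSP90AB1) to 1.997 (without members that share a row). A setting without HSPG2 was not run, as that gene is no member here. No paired analysis was possible because each group has 1 library, and leaving one out leaves no comparison. Depth limits every single member: 1 to 3 fragments cannot tell roles apart.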
